A study of Mus musculus with 8 samples.

Results

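The genes described here encode cytosolic heat shock proteins: the HSP110 proteins Hspa4, Hspa4l and Hsph1, the HSP70 protein Hspa8, the HSP90 proteins Hsp90aa1 and Hsp90ab1, the J proteins Dnaja1 and Dnajb1, and the small heat shock proteins Hspb1 and Cryab. They were chosen by gene symbol, 10 genes in all, and 8 of them had an array row named by that symbol alone, out of 22180 genes with such a row. Hsp90ab1 and Dnaja1 were not analysed here: no row was taken for Hsp90ab1, and the row that names Dnaja1 also names a microRNA. For genes with more than 1 row, the brightest by its mean over the 8 arrays was kept.

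Expression was measured as log2 values on whole-transcript arrays of total RNA from the pancreas of C57 BL6 mice, 6 days after tamoxifen (3 mg per 40 g of body weight, injected into the peritoneum). Control mice (LmnaWT, called WT here) and Lmna knockout mice (LmnaKO, called KO) gave 4 arrays each, with 3 males and 1 female per genotype. Tamoxifen was given to both groups. Lmna encodes lamin A/C, a filament protein of the nuclear envelope, and by the study's title it was ablated in acinar cells, which make the digestive enzymes. The Cre driver, the Lmna allele and the mice's age are not stated in these sources, nor is whether each array is 1 animal. A p-value therefore speaks of the spread between these 8 samples, which may be technical.

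Whole pancreas was sampled, and in such bulk RNA fewer cells of a type and less RNA per cell cannot be told apart. Acinar markers were high on every array, with list means of 10.40 to 10.60 in WT and 10.09 to 10.27 in KO against a median of 2.13 to 2.33 over all rows. These list means did not overlap between genotypes. Of the 7 measured genes Bhlha15 alone was called, as lower in KO (-1.42 ± 0.12). The others differed by -0.22 (Cpb1) to 0.03 (Ptf1a) and were not called. List means without Bhlha15 were not compared, so the separation is no result about acinar markers as a set. The enzyme genes among them had group means of 11.8 to 12.4, near the array maxima of 12.35 to 12.47. Array values are given in the order of replicates 1 to 4. Lmna itself, on a dim row, measured 2.54, 3.13, 2.67 and 2.88 on the WT arrays and 2.33, 2.58, 2.73 and 2.61 on the KO arrays (limma adjusted p = 0.264), and whether its probes lie in the removed part is not stated, so it does not check the genotype labels. The interquartile range of all rows was 2.06 to 2.20 in WT and 2.45 to 2.65 in KO, and genes of middle level were called higher in KO more often than others, which is why each member is set below against genes of its own level.

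Cytosolic chaperones hold unfolded proteins and help them fold. HSP70 binds and releases its clients in a cycle driven by ATP: J proteins bring clients and start the hydrolysis of ATP, and HSP110 proteins remove ADP so that the client is let go. HSP90 takes over late folding steps of kinases and receptors, and small heat shock proteins form oligomers that hold unfolding proteins without ATP. Many of these genes are induced by heat shock factor Hsf1, which binds inverted repeats of the bases GAA, and the acinar cell, which makes very large amounts of secreted protein, also depends on the related chaperones of the endoplasmic reticulum (ER).

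In KO pancreas 4 of the 8 measured members rose and 1 fell (limma, Benjamini-Hochberg adjusted p under 0.05 over all genes). The HSP110 genes Hspa4l and Hspa4, the small heat shock gene Hspb1 and the HSP90 gene Hsp90aa1 were higher, the other small heat shock gene, Cryab, was lower, and Hsph1, Hspa8 and Dnajb1 did not pass. Over all genes tested 14.6% were called higher and 6.99% lower in KO. In these 5 called members the 4 KO arrays lay on one side of the 4 WT arrays, which held for 15.3% of all genes as higher and 12.1% as lower, and the exact two-sided permutation p of each was 0.0286, the smallest that 4 against 4 arrays allow. With the replicate number as a block 5 members were higher and 1 lower, against 16.7% and 6.08% of all genes. Without WT 4 the members' counts were also 5 and 1 (all genes 11% and 4.12%), and after a second quantile normalization 3 and 1 (all genes 5.54% and 5.15%). The median difference (KO minus WT) of the 8 members was 0.77 log2 units and that of all genes was -0.06. The members lie at mean levels of 3 to 10, where genes were higher in KO more often. In bins of 1 log2 unit there, all genes had median differences of 0.14 to 0.50, and 22.9% to 39.7% were called higher.

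**Figure D1:**
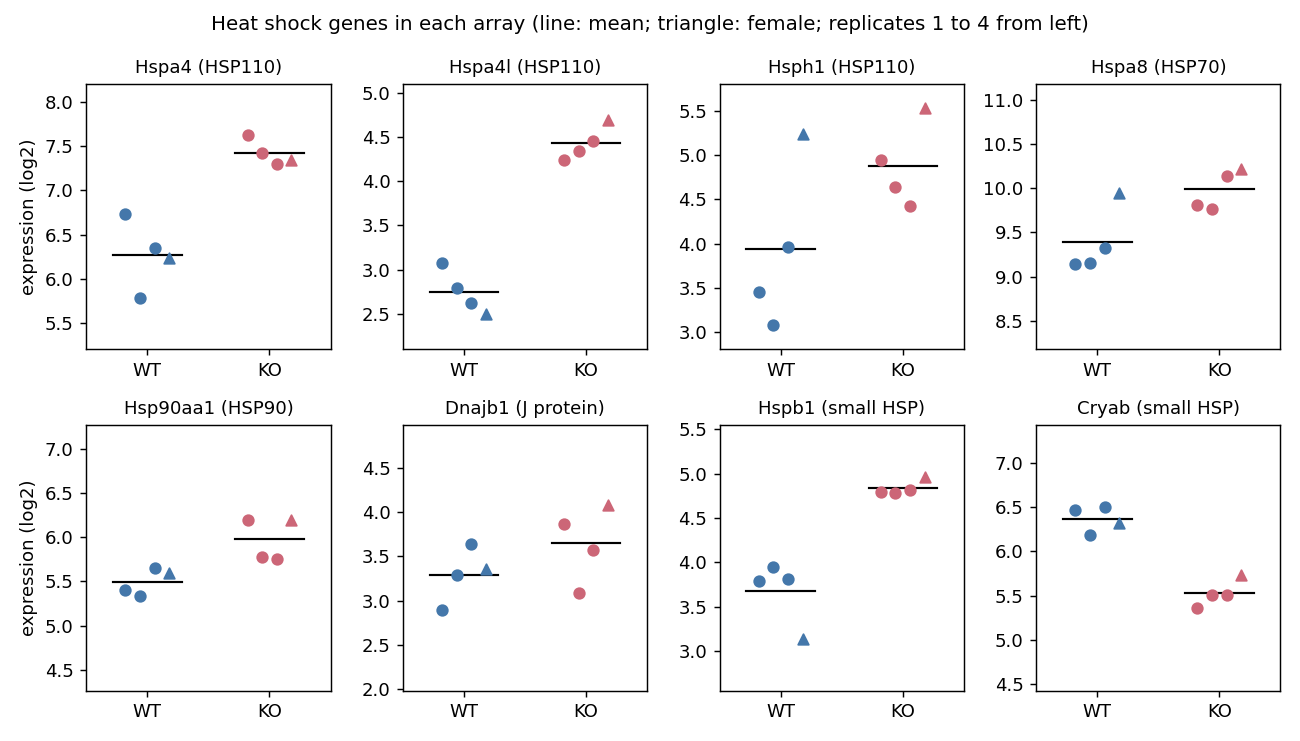
Log2 expression of the 8 measured members in each of the 4 WT and 4 KO arrays, replicates 1 to 4 from left to right, with the female of each genotype as a triangle and the group mean as a line; the vertical axis spans the same number of log2 units in every panel. The genotypes do not overlap in Hspa4, Hspa4l, Hsp90aa1, Hspb1 and Cryab, and WT 4 lies among the KO arrays in Hsph1 and Hspa8.

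The promoters of the members differ in matches to the element that Hsf1 binds, and the stretches below show the elements of Hspb1 and Hsph1 beside the same region of Hspa4l and Hspa4. They come from RefSeq windows of 300 bases on GRCm38.p6, from 250 bases before to 50 after a transcript start, which were matched by symbol for 6 of the 10 members (Hspa4, Hspa4l, Hsph1, Dnaja1, Dnajb1 and Hspb1). Searched on both strands were the paired units GAANNTTC and TTCNNGAA, each its own reverse complement, and runs of 3 units, in which NN and a further GAA or TTC extend a paired unit in alternation, so that each run holds paired units within it. Capitals mark every match. Positions count from the transcript start: Hspb1 is shown from -150 to -71 (chr5:135887769-135887848, plus strand), Hsph1 from -60 to -1 (chr5:149636337-149636396, minus strand) and from 31 to 50 (chr5:149636287-149636306, minus strand), Hspa4l from -100 to -1 (chr3:40745513-40745612, plus strand) and Hspa4 from -100 to -1 (chr11:53300480-53300579, minus strand).
Hspb1: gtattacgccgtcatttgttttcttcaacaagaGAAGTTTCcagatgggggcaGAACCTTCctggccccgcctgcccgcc
Hsph1, before the start: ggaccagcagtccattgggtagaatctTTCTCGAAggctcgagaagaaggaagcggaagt
Hsph1, after the start: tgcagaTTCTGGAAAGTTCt
Hspa4l: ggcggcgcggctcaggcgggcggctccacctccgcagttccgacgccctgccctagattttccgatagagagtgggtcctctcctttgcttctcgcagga
Hspa4: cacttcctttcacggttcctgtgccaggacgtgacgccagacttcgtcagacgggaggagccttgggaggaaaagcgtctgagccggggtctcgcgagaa

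Hspb1 held GAANNTTC at -117 and again at -97. Hsph1 held TTCNNGAA at -33 and, from position 37, a run of 3 units that starts with TTC; a second Hsph1 start in the table shares these elements. Neither form was matched in the whole windows of Hspa4l and Hspa4, which rose, or of Dnajb1, which did not pass. A paired unit was present in 3 of the 6 members with a window, Dnaja1 being the other one, against 17.0% of the 27025 genes in the table, and a run of 3 units in 1 of 6 members against 0.662% of genes. A match describes letters only, and its absence says that these letters are not in the window.

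Of the HSP110 genes, which supply the nucleotide exchange factors of HSP70, Hspa4l had the smallest p of all members. It measured 3.07, 2.80, 2.63 and 2.51 on the WT arrays and 4.24, 4.34, 4.45 and 4.70 on the KO arrays. The WT values were dim, near the medians over genes of the WT arrays (2.46 to 2.66), and its level below is the mean over both groups. All KO arrays were above all WT arrays by over 1 log2 unit. The difference was 1.68 ± 0.16 (log2, ± SE, n = 4 per group, 3.21-fold, limma adjusted p = 0.000837), and 43 of the 3050 genes at a mean level of 3 to 4 had a larger one (1.41%). In that range of level 22.9% of genes were called higher.

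Hspa4, the more widely expressed of this pair, measured 6.73, 5.78, 6.35 and 6.23 on the WT arrays and 7.63, 7.42, 7.30 and 7.35 on the KO arrays. The KO arrays were close together and above every WT array, of which WT 1 was the highest. The difference was 1.15 ± 0.19 (2.22-fold, limma adjusted p = 0.00488), and 6.67% of the 930 genes at a level of 6 to 7 had a larger one. Of those genes 34.3% were called higher.

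Hsph1, the HSP110 protein most strongly induced by heat, measured 3.45, 3.08, 3.97 and 5.24 on the WT arrays and 4.94, 4.63, 4.42 and 5.53 on the KO arrays. WT 4, the WT female, was above 3 of the 4 KO arrays. The difference of 0.95 ± 0.42 did not pass (limma adjusted p = 0.128), and 16.7% of the 2797 genes at a level of 4 to 5 had a larger one. Hsph1 differed by 1.38 ± 0.29 without WT 4 (limma adjusted p = 0.0209), and by 0.95 ± 0.24 with the replicate number as a block (limma adjusted p = 0.0272).

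Whether Hspa4l and Hspa4 changed by unequal amounts was tested on their difference within each array. Hspa4l minus Hspa4 was -3.66, -2.98, -3.73 and -3.73 on the WT arrays and -3.38, -3.08, -2.85 and -2.65 on the KO arrays. WT 2 lay within the KO values. The genotypes differed by 0.53 ± 0.24 log2 units, which did not pass (exact two-sided permutation p = 0.0857, and also 0.0857 after Benjamini-Hochberg adjustment over 2 pairs; of 4 planned pairs, the other 2 each need Hsp90ab1 or Dnaja1). After a second quantile normalization the value was 0.71 and after cyclic loess 0.73, both with an unadjusted exact p of 0.0286.

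Hspa8, the constitutive HSP70 of the cytosol and the partner of the J and HSP110 proteins, measured 9.14, 9.16, 9.32 and 9.95 on the WT arrays and 9.81, 9.77, 10.14 and 10.22 on the KO arrays. WT 4 again lay within the KO range, and the other WT arrays were below it. The difference of 0.59 ± 0.20 did not pass (limma adjusted p = 0.0584). Without WT 4 it was 0.78 ± 0.15 (limma adjusted p = 0.0169), and with the replicate block 0.59 ± 0.14 (limma adjusted p = 0.0228). Of the 58 genes at a level of 9 to 10, 20.7% had a larger difference than Hspa8 on all 8 arrays, and 25.9% were called higher.

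Hspa8 had 3 further rows of its own, with smaller differences than the brightest one. These were 0.29 ± 0.35, 0.31 ± 0.35 and 0.04 ± 0.17, with WT 4 the highest of the 8 arrays in each. The mean of the 4 rows gave 0.31 ± 0.25 (limma adjusted p = 0.378). Hspa8 has many processed copies in the mouse genome, and the sources used here do not say which transcripts these rows measure.

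**Figure D2:**
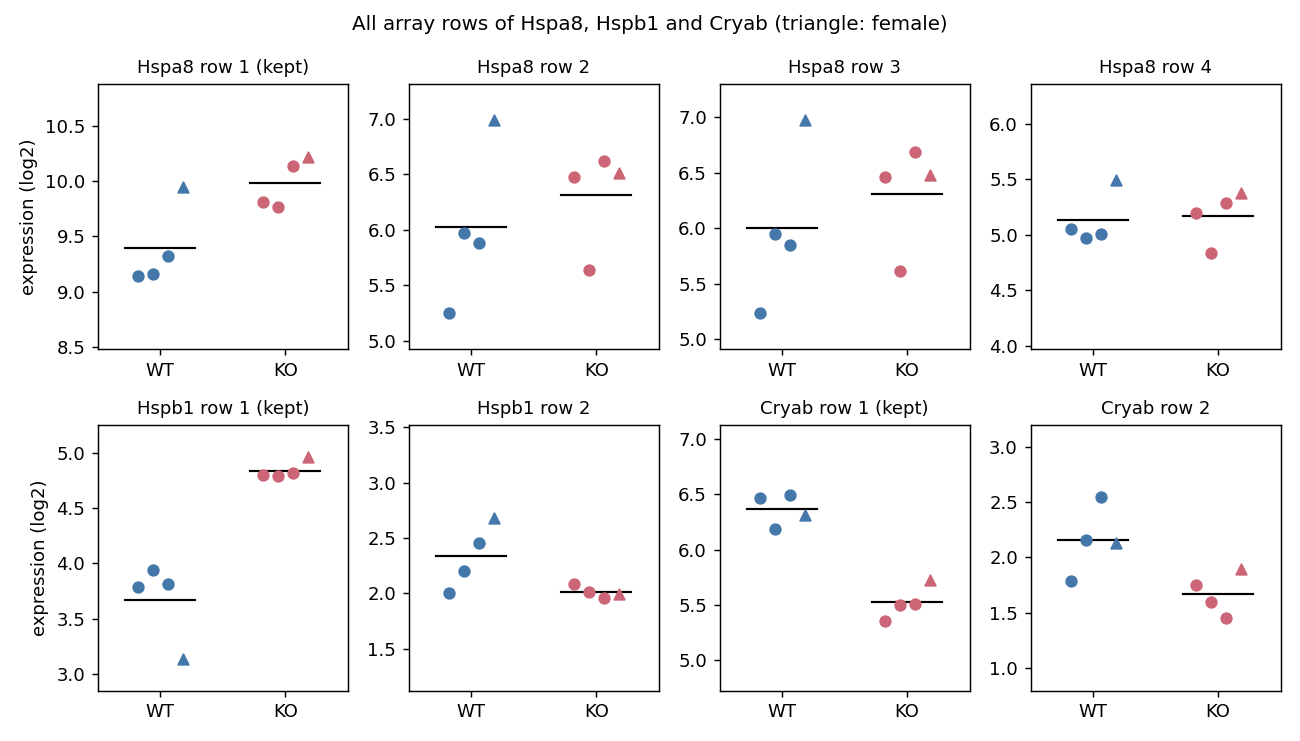
Log2 expression in every row named Hspa8, Hspb1 or Cryab alone, rows numbered by mean level and the one used marked as kept (circles: males, triangles: females, lines: group means; every panel spans the same number of log2 units). The genotypes separate in the kept rows of Hspb1 and Cryab, overlap in all 4 rows of Hspa8, and in the dim second row of Hspb1 the difference was -0.32 against 1.17 in the kept row.

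Hsp90aa1, the inducible HSP90 of the cytosol, measured 5.40, 5.34, 5.65 and 5.60 on the WT arrays and 6.19, 5.78, 5.76 and 6.19 on the KO arrays. KO 2 and KO 3 lay only just above WT 3, and KO 1 and KO 4 well above. The rise was 0.48 ± 0.15 (1.40-fold, limma adjusted p = 0.0440), close to the median difference of 0.50 among the 1911 genes at a level of 5 to 6, of which 39.7% were called higher and 51.6% had a larger difference than Hsp90aa1. The call was lost in 13 of 20 alternatives, among them the replicate block (limma adjusted p = 0.0535), a second quantile normalization (0.04 ± 0.15), cyclic loess (0.08 ± 0.15) and each single array left out but KO 2 (limma adjusted p = 0.0503 to 0.125).

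Dnajb1, the main heat-inducible J protein, measured 2.89, 3.29, 3.64 and 3.36 on the WT arrays and 3.87, 3.08, 3.58 and 4.08 on the KO arrays. KO 2 was below 3 WT arrays. The difference of 0.36 ± 0.23 did not pass (limma adjusted p = 0.261, 95% interval -0.15 to 0.87). Of the 3050 genes at a level of 3 to 4, 42.4% had a larger one.

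The small heat shock genes Hspb1 and Cryab moved in opposite directions. Hspb1 (HSP27), which binds unfolding proteins and actin filaments, measured 3.79, 3.94, 3.81 and 3.14 on the WT arrays and 4.79, 4.79, 4.81 and 4.96 on the KO arrays. The KO arrays were nearly level, and WT 4 was the lowest array, the reverse of its place in Hsph1 and Hspa8. The rise was 1.17 ± 0.17 (2.25-fold, limma adjusted p = 0.00340), and 9.26% of the 2797 genes at a level of 4 to 5 had a larger one. Of all genes at that level 36.6% were called higher. The mean of both Hspb1 rows, the second of which measured 1.96 to 2.68, gave 0.42 ± 0.11 (limma adjusted p = 0.0229).

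Cryab (alpha-B crystallin), a small heat shock protein abundant in lens, muscle and glia, measured 6.46, 6.18, 6.50 and 6.32 on the WT arrays and 5.36, 5.50, 5.51 and 5.73 on the KO arrays. The groups were tight and well apart. Cryab fell by 0.84 log2 units (± 0.13 SE, 1.79-fold lower, limma adjusted p = 0.00352). Of the 1911 genes at a level of 5 to 6, 3.14% were called lower and 32 had a lower difference than Cryab (1.67%). Its second row, at 1.45 to 2.54, differed by -0.48 ± 0.17 (limma adjusted p = 0.0717 among all rows).

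Hspb1 minus Cryab within each array was -2.67, -2.24, -2.68 and -3.18 on the WT arrays and -0.56, -0.71, -0.70 and -0.76 on the KO arrays, with no overlap. The genotypes differed by 2.01 ± 0.20 log2 units (exact two-sided permutation p = 0.0286, 0.0571 and thus above 0.05 after adjustment over the 2 pairs tested), in the same direction in all 4 replicate pairs. If the arrays are taken as pairs the smallest p possible is 0.125, and that was its value. With the mean of each gene's rows the difference was 1.09.

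**Figure D3:**
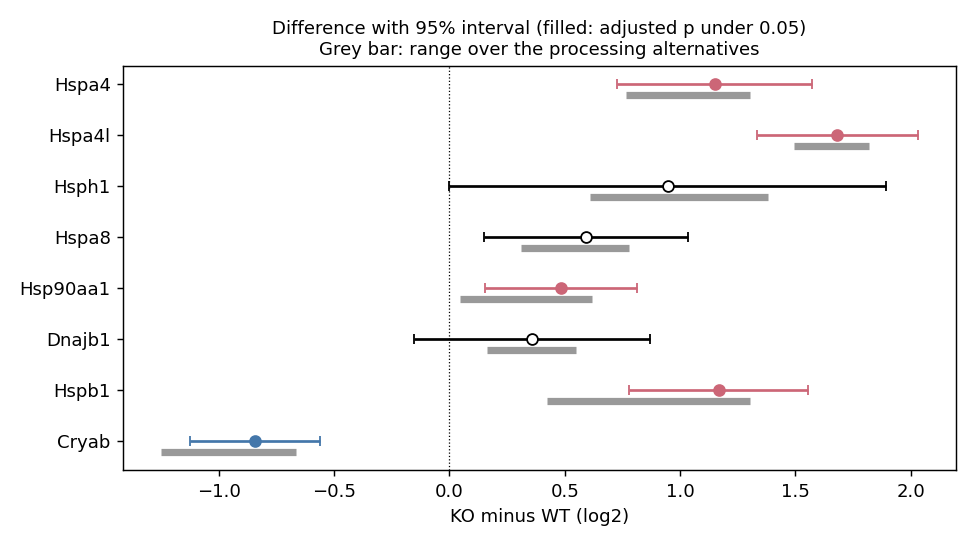
KO minus WT difference of each member (log2) with its 95% limma interval, filled where the adjusted p is under 0.05, red as higher and blue as lower, above a grey bar that spans its values over the processing alternatives. Hspa4l is at 1.68 and Cryab at -0.84, both far from 0, while the bar of Hsp90aa1 reaches down to 0.04.

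Set side by side as classes, the 5 measured HSP110, HSP70 and HSP90 genes all had positive differences of 0.48 to 1.68 (median 0.95). Of these 5, 3 rose, among them Hsp90aa1, which lost its call in 13 of 20 alternatives. In bins of level from 3 to 10, all genes had median differences of 0.14 to 0.50, and 22.9% to 39.7% were called higher. The 2 small heat shock genes had 1.17 and -0.84. The median of the larger class was 0.63 when quantile normalization was repeated, 0.61 with cyclic loess and 0.66 without WT 2, and no test was made between the classes because genes are not replicates. Hspa4, Hspa4l, Hspb1 and Cryab kept both their direction and their call in each of the 20 alternatives, with Hspa4 between 0.77 and 1.30, Hspa4l between 1.5 and 1.82, Hspb1 between 0.42 and 1.30 and Cryab between -1.25 and -0.66.

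**Figure D4:**
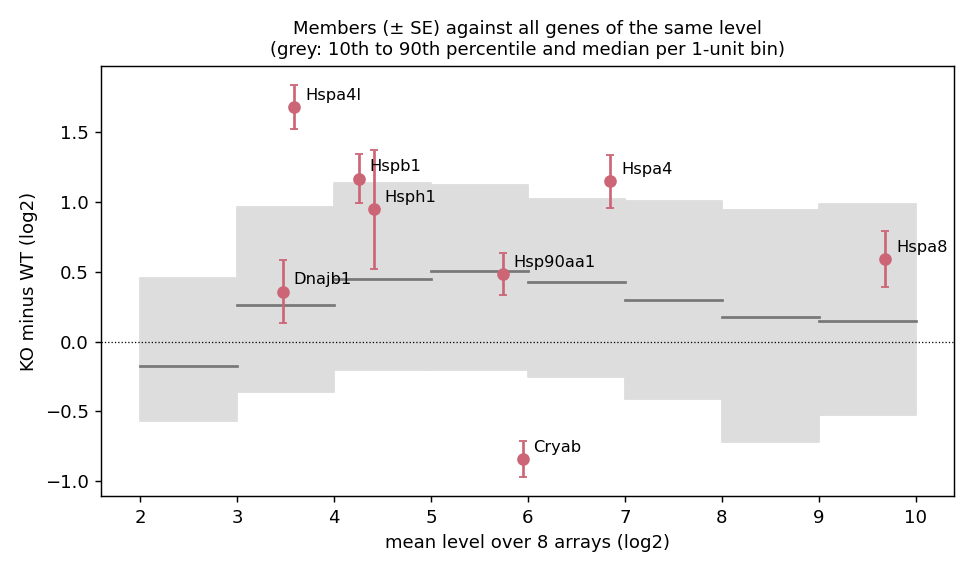
KO minus WT difference (± SE) of each member against its mean level over the 8 arrays, with the 10th to 90th percentile (grey) and median (dark line) of all genes in bins of 1 log2 unit. Hspa4l, Hspa4 and Hspb1 lie above the grey band and Cryab below it, while Hsp90aa1 at 0.48 and Dnajb1 at 0.36 sit near the medians of their bins, 0.50 and 0.26.

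Replicate 4, the female of each genotype, was the highest KO array in 7 of the 8 measured members and the highest WT array in Hsph1 and Hspa8. In Hsp90aa1 KO 4 (6.195) was barely above KO 1 (6.192). The share of all genes highest in replicate 4 was not counted, so these counts are no result about the members. The heat-inducible HSP70 genes Hspa1a and Hspa1b, which are near-identical copies and could share probes, were also highest in WT 4 among WT and in KO 4 among KO. Hspa1b measured 2.45, 3.72, 3.76 and 4.13 on the WT arrays and 4.63, 4.97, 4.16 and 6.76 on the KO arrays, and its difference of 1.62 ± 0.54 did not pass (limma adjusted p = 0.0568). Hspa1a measured 2.30 to 2.97 in WT and 2.81 to 3.22 in KO 1 to KO 3 but 4.48 in KO 4.

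Fitted beside genotype, female minus male was 1.30 ± 0.28 for Hsph1, 0.53 ± 0.17 for Hspa8 and 0.01 ± 0.19 for Hspa4l. By limma 0 of the 8 members passed for sex (adjusted p = 0.9999 each, with 2 at an unadjusted p under 0.05), and 1 gene of 22180 did. With sex in the fit, Hsph1 (limma adjusted p = 0.0290) and Hspa8 (limma adjusted p = 0.0254) passed for genotype, with differences of 0.95 and 0.59. With 1 female per genotype, sex and the single array cannot be told apart.

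The genes that work with these chaperones were counted in lists and read against the 14.6% of all genes called higher. Among J proteins of the cytosol and nucleus 3 of 17 measured genes rose and 0 fell, namely Dnajc9, a histone chaperone (1.22 ± 0.14), the endosomal Dnajc13 (1.15 ± 0.14) and the ribosome-associated Dnajc2 (0.90 ± 0.17). The partner of Dnajc2 on the ribosome, Hspa14, was the 1 of 7 other HSP70-family genes that rose (0.62 ± 0.13). Of the BAG genes and Hspbp1, listed here as exchange factors outside HSP110, 1 of 7 rose. This was Bag6 (0.58 ± 0.13), which guards hydrophobic segments of new proteins. Bag3, an Hsf1 target, differed by 0.16 ± 0.19 (limma adjusted p = 0.559). The shares called higher in these lists were 17.6%, 14.3% and 14.3%, near that of all genes and below those of genes at levels of 3 to 6, and are no result about the lists.

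Medians of these lists were 0.26 for the J proteins, 0.30 for the other HSP70 genes and 0.02 for the exchange factors. After a second quantile normalization they were -0.08, 0.22 and -0.27, and after cyclic loess -0.10, 0.27 and -0.23, so the direction for J proteins and exchange factors rests on the scaling. Under both, limma called 2 J proteins and 1 exchange factor lower, 3 J proteins higher and 0 exchange factors higher, so that Bag6 lost its call. After the second quantile normalization 0 of the 7 other HSP70 genes were called, so that Hspa14 lost its call too. Other settings gave more calls. With the replicate block 5 of 17 J proteins, 3 of 7 other HSP70 genes and 1 of 7 exchange factors were called higher, against 16.7% of all genes. With median centring these counts were 5, 2 and 1, and 5005 of all genes were called in either direction.

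Among HSP90 cochaperones 8 of 21 rose (38.1%) and 1 fell, with a median of 0.45. At levels of 4 to 5 and 5 to 6, which hold most of these genes, 36.6% and 39.7% of all genes were called higher. The median differences of all genes there were 0.45 and 0.50, so the list lay near genes of its level. Sugt1, which links HSP90 to the kinetochore and to immune receptors, rose by 1.71 ± 0.21, Cacybp by 1.10 ± 0.18 and the cyclophilin Ppid by 0.76 ± 0.15. With the replicate block 7 of 21 cochaperones were called higher and 1 lower. The count was 2 higher and 2 lower after a second quantile normalization (median 0.12) and after cyclic loess (median 0.13). Of the other small heat shock genes, Hspb8, the partner of Bag3, rose (0.83 ± 0.21) and the muscle gene Hspb3 fell (-0.61 ± 0.18, on a row of 1.52 to 2.84, near the median of the array), out of 7. Without WT 4, limma called 0 of the 7, and after a second quantile normalization 0 were higher and 1 lower. Hsf1 itself had no row named by its symbol alone and was not measured here. The other heat shock factors and their regulators had 0 of 6 called by limma, with 1 at an unadjusted p under 0.05. This was Hsf2, which acts beside Hsf1. It measured 2.54 to 3.69 in WT and 3.39 to 3.99 in KO, a difference of 0.75 ± 0.25 that did not pass (limma adjusted p = 0.0611).

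The chaperones of other compartments and the cytosolic chaperonin give a scale for these counts. In bins of 1 log2 unit from a level of 4 to 10, 25.9% to 39.7% of all genes were called higher. The ER list holds genes of the HSP families and other chaperone genes, and 7 of 12 rose and 0 fell (median 0.77). Among those that rose were the HSP90 protein Hsp90b1 (1.77 ± 0.15), the HSP70 protein Hspa5 (1.65 ± 0.23) and Sdf2l1 (1.0 ± 0.15). In mitochondria 8 of 10 rose and 0 fell (median 0.73), among them the HSP70 protein Hspa9 (1.42 ± 0.22), its J protein Dnaja3 (1.19 ± 0.24) and its exchange factor Grpel1 (1.21 ± 0.24). Of the TRiC subunits, which form the ring that folds actin and tubulin, 6 of 8 rose and 0 fell (median 0.84), with Cct8 (1.25 ± 0.19), Cct6a (1.13 ± 0.19) and Cct2 (0.91 ± 0.18) of smallest p. Against these stand 4 of 8 for the cytosolic members. After a second quantile normalization the counts that rose were 7 of 12, 2 of 10, 4 of 8 and 3 of 8 in the same order, with 1 lower in each of the ER, TRiC and member lists, and whether the lists differ from one another was not tested. Their medians were then 0.56 for the ER, 0.36 for mitochondria and 0.47 for TRiC, and with cyclic loess 0.55, 0.37 and 0.44. The cytosolic members also moved under these 2 scalings. Their HSP110, HSP70 and HSP90 median was 0.63 and 0.61 (0.95 as deposited), and their small heat shock median -0.20 and -0.20 (0.16 as deposited). With the replicate block 7 of 12 ER, 7 of 10 mitochondrial and 6 of 8 TRiC genes were called higher, against 16.7% of all genes.

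**Figure D5:**
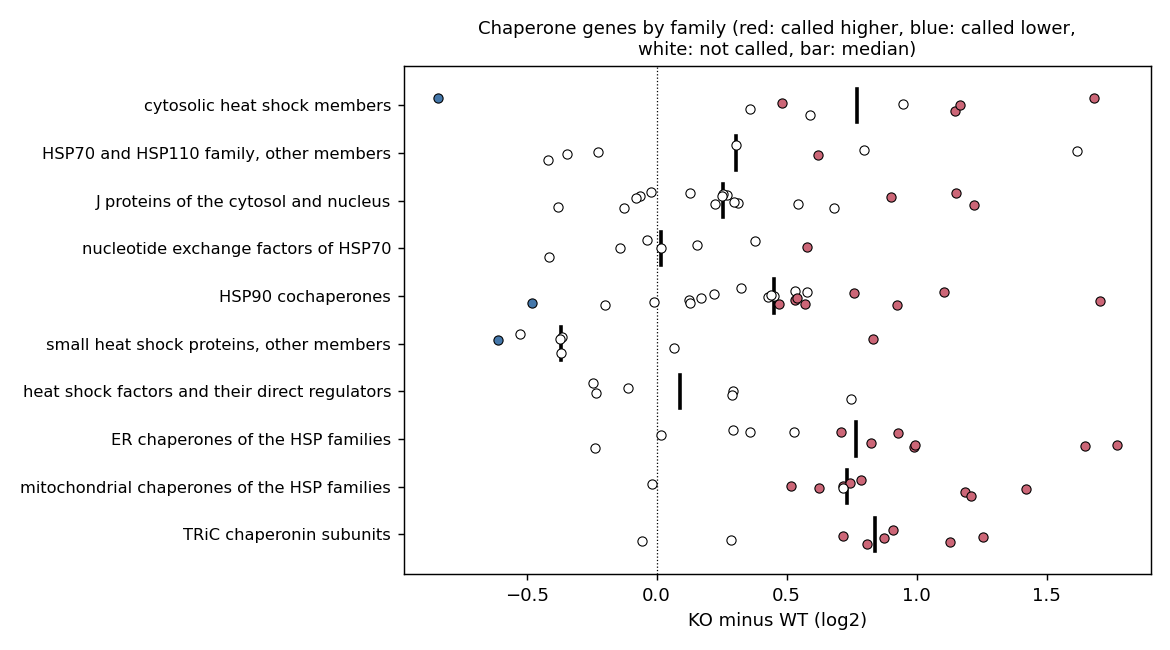
KO minus WT difference (log2) of each measured gene by chaperone list, red where called higher, blue where called lower and white where not called, with the list median as a bar. On the deposited scale the medians of the ER (0.77), mitochondrial (0.73) and TRiC (0.84) lists lie near that of the cytosolic members (0.77). That of the other small heat shock proteins is at -0.37. After a second quantile normalization the first 3 medians were 0.56, 0.36 and 0.47. The members moved too, with medians of 0.63 for the HSP110, HSP70 and HSP90 members and -0.20 for the small heat shock members.

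By Pearson correlation over the 8 arrays, the genes most like Hspa4l were Exosc8 (r = 0.997), Chfr (r = 0.996) and Cbfb (r = 0.993), and those most like Cryab were Insyn1 (r = 0.989), Tm6sf2 (r = 0.977) and Erich5 (r = 0.976). The 8 points share the genotype step, and the values are given as a description. Their own differences were 0.87 to 1.62 for the genes like Hspa4l and -1.07 to -0.65 for those like Cryab.

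Markers of other cell types were measured beside the members, as the sum of their values on the linear scale. Ductal markers, of which 1 of 6 rose (Krt19, 1.13 ± 0.15) and 1 fell (Muc1, -1.10 ± 0.18), summed to 580 to 861 in WT and 312 to 458 in KO. That separation was the one of Muc1: the other 5 genes summed to 74.6 to 112 in WT and 71.7 to 91.6 in KO, and the list means of 4.35 to 4.75 in WT and 4.22 to 4.51 in KO overlapped. Smooth muscle and pericyte markers (0 of 8 called by limma, 1 at an unadjusted p under 0.05, Cspg4, with adjusted p = 0.0965) summed to 115 to 438 in WT and 110 to 164 in KO. Striated muscle markers, of which 1 of 7 fell (Myl1, -0.42 ± 0.13), had list means of 2.21 to 2.73 in WT and 2.03 to 2.17 in KO, close to the median of all rows. All 7 had negative differences, 4 of them at an unadjusted limma p under 0.05.

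Macrophage markers, of which 4 of 9 rose (Adgre1, 2.29 ± 0.38), summed to 207 to 754 in WT and 602 to 1662 in KO, and stellate cell and fibroblast markers, of which 1 of 9 rose (Lum, 1.14 ± 0.24), to 428 to 1086 in WT and 625 to 2614 in KO. All 9 macrophage markers had positive differences (median 1.55) and an unadjusted limma p under 0.05. Of the 9 stellate cell and fibroblast markers, 8 had positive differences and 5 an unadjusted limma p under 0.05. The part of these cell types in the rise of Hspa4, Hspa4l and Hspb1 or the fall of Cryab was not tested. Of the remaining lists, acinar markers had 1 of 7 lower, Bhlha15 (-1.42 ± 0.12, limma adjusted p = 0.00057). Islet markers also had 1 of 7 lower, Pdx1 (-0.72 ± 0.21). Markers of Schwann cells, endothelium, neutrophils, T and B cells, adipocytes and mesothelium had 0 called by limma. Of their 39 measured genes 5 had an unadjusted limma p under 0.05.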

How the data were processed

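The deposited table holds log2 expression values per array row. Per the submitters' processing notes the authors used oligo, RMA (background correction, quantile normalization and summary of probes) and limma. No version and no genome build is given in the sources used here. Per the labels, 100 ng of RNA went into each biotin-labelled cDNA. RMA pulls low values together, so differences of dim genes are understated. Of 41345 rows, 23521 name 1 gene, 1814 several and 16010 none.

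KO and WT were compared with limma 3.58.1 in R 4.3.3 (lmFit and eBayes), with Benjamini-Hochberg adjustment over 22180 genes and a threshold of 0.05, after checks on simulated data. Gene pairs were tested by exact two-sided permutation over 70 splits. The number of arrays limits the precision. The genes named are the members, the list genes called with the smallest p, and the 3 genes most like Hspa4l and Cryab; Bag3, Hsf2, Hspa1a, Hspa1b, Hspb3, Cspg4 and Fkbp5 were named after their values were seen. Members and lists were chosen with earlier results of these data known.

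The reported comparisons are unpaired. Deviations from the group means of same-numbered WT and KO arrays correlated at 0.26, 0.17, 0.11 and 0.14 for numbers 1 to 4, each over 0.1, and each of the 8 arrays correlated best with its own number. Of the differently numbered pairs 2 were also over 0.1 (0.12 for WT 4 with KO 2 and 0.11 for WT 3 with KO 1). The labels do not state a pairing. On this check from the data alone, values with the number as a block stand beside member calls and list counts that they change. Alternatives were 20 other settings: the replicate block, sex, males alone, each array left out, other scalings, weights, filters, rows and tests.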

Additional observations from a re-analysis of the deposited data

Results flagged for a closer look

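Hspb1 in KO 4, the KO female, read 4.96, while the other KO arrays read 4.79, 4.79 and 4.81. The gap to the nearest array was a larger share of the group's range than the 95% limit of Dixon's test for 4 arrays (0.829). This was the 1 such value among 16 groups tested (8 members in WT and in KO), and chance gives about 1 in 20 groups. All 4 KO arrays lay above all WT arrays, with KO 4 left in or out.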

How the results depend on the processing

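In 20 alternatives no measured member changed direction, Hspa4, Hspa4l, Hspb1 and Cryab kept their calls, and Dnajb1 was not called in the 19 that gave it a value (a filter on a mean of at least 4 leaves it out). With the replicate block, Hsph1 and Hspa8 gained a call and Hsp90aa1 lost its own, for 5 members higher; limma called 5046 genes against 4792, and 39 pathway genes against 37. The paired sign-flip test of Hspb1 minus Cryab (2.01) gave an exact p of 0.125, its smallest. Males alone gave 915 genes, 14 pathway genes and 1.88 for Hspb1 minus Cryab (exact p = 0.1, the smallest that 3 against 3 allow). The test without moderation called 2381 genes and 22 pathway genes.

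A second quantile normalization called 2370 genes and cyclic loess 2699. They gave medians of 0.63 and 0.61 for the HSP110, HSP70 and HSP90 members, -0.20 and -0.20 for the small heat shock members (0.16 as reported, -0.12 with the mean of a gene's rows), and 0.71 and 0.73 for Hspa4l minus Hspa4. Median centring shifted the all-gene median to 0.08 from -0.06. Leaving out 1 array gave 2240 to 6070 genes (3183 without KO 2, 2904 without KO 3 and 2240 without KO 4), 23 to 42 pathway genes (fewest without KO 4), and a median of 0.66 (without WT 2) to 1.14 for the larger class. Of these settings, the one without WT 4 alone called Hsph1 and Hspa8, and the one without KO 2 alone called Hsp90aa1. The cause of these changes was not tested. The pairs Hsp90aa1 and Hsp90ab1, and Dnajb1 and Dnaja1, were not run.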

Other observations

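Fkbp5, an HSP90 cochaperone and a glucocorticoid-induced gene, was chosen here after its values were seen, for the place of replicate 4. It measured 4.73, 4.39, 4.36 and 6.31 on the WT arrays and 4.47, 4.91, 4.33 and 5.29 on the KO arrays. The female was the highest array of each genotype, and the genotypes differed by -0.20 ± 0.41 (limma adjusted p = 0.734).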
